A study of Mus musculus with 4 samples.

Results

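The subunits of the nucleosome remodelling and deacetylase (NuRD) complex, a corepressor to which SALL1 binds, were examined in mouse ovaries that do or do not overexpress Sall1. The genes were chosen by name as 10 of the 34682 genes in the count table: Hdac1, Hdac2, Rbbp4, Rbbp7, Mta1, Mta2, Mta3, Chd4, Mbd3 and Gatad2a. Of these, 9 passed the filter on low counts and were tested among 15442 genes, and Chd4 was listed at 0 in every library. The 9 subunits were abundant RNAs, and none of them passed the test for a difference between mutant and wild-type ovaries.

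RNA was sequenced in 4 libraries from developing ovaries at E13.5, with 2 libraries per genotype: mutants that overexpress Sall1, and wild-type embryos. The mutants carried a bacterial artificial chromosome (BAC) with the mouse Sall1 coding sequence under the promoter and regulatory elements of Wt1, a gene that is active in the somatic cells of the gonad. The BAC was integrated by PiggyBac transposition into a female embryonic stem cell line, and picked clones were made into embryos by morula aggregation. The methods derive this line from C57BL/6J blastocysts. Their general statement on transgenic experiments gives C57BL/6J or a C57BL/6J-129 hybrid as background. How many clones or embryos stand behind each library is not given in the sources used here. The results of the study call the controls littermates, its methods name wild-type CD1 gonads, and the wild-type columns of the table are named with B6, so genotype and strain cannot be told apart with certainty. Library totals lay between 11036313 and 17869840 counts. The libraries of each genotype differed by more than sampling noise, and nothing in the labels says that they came from separate animals, so p-values measure the spread between these libraries.

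NuRD joins a histone deacetylase module to an ATP-dependent nucleosome remodeller. HDAC1 and HDAC2 remove acetyl groups from histones, MTA proteins form the scaffold that holds and activates them, and the WD40 proteins RBBP4 and RBBP7 bind histones. MBD3, or in its place the methyl-CpG-binding MBD2, and GATAD2A or GATAD2B link this module to the remodeller, usually CHD4. SALL proteins, like the FOG and BCL11 zinc finger factors, recruit the complex through a short conserved motif at their N terminus.

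Sall1 itself (chromosome 8, 91551147 to 91568061, minus strand, GENCODE M1 on NCBIM37 or mm9) was counted 1243 and 1445 times in mutant ovaries but 279 and 223 times in wild-type ovaries. The high libraries were those labelled as mutant, with a log2 fold change of 2.85 (SE 0.16, Benjamini-Hochberg adjusted p = 0.00823 from the quasi-likelihood test of edgeR). Counts per gene do not separate the transgene from the endogenous gene. Across all genes, 9 of 15442, or 0.0583%, passed at an adjusted p under 0.05, 2 higher and 7 lower in the mutants. This number depended strongly on the tool and the model. It was 105 genes (42 higher, 63 lower) by DESeq2, and 385 (180 higher, 205 lower) with the replicate number as a block in the edgeR fit. No NuRD member was among the genes that passed (0 of 9). An unadjusted p under 0.05 in edgeR's test was seen for 0 of 9 members and for 878 of the 15442 genes tested. That share of all genes is so small that 0 of 9 says nothing particular about the members. DESeq2 and the other alternatives called 0 members as well. For 1 gene alone, permuting 2 libraries against 2 exactly could not reach a p below 0.3333, and the tests rest on a spread shared across genes.

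**Figure D1:**
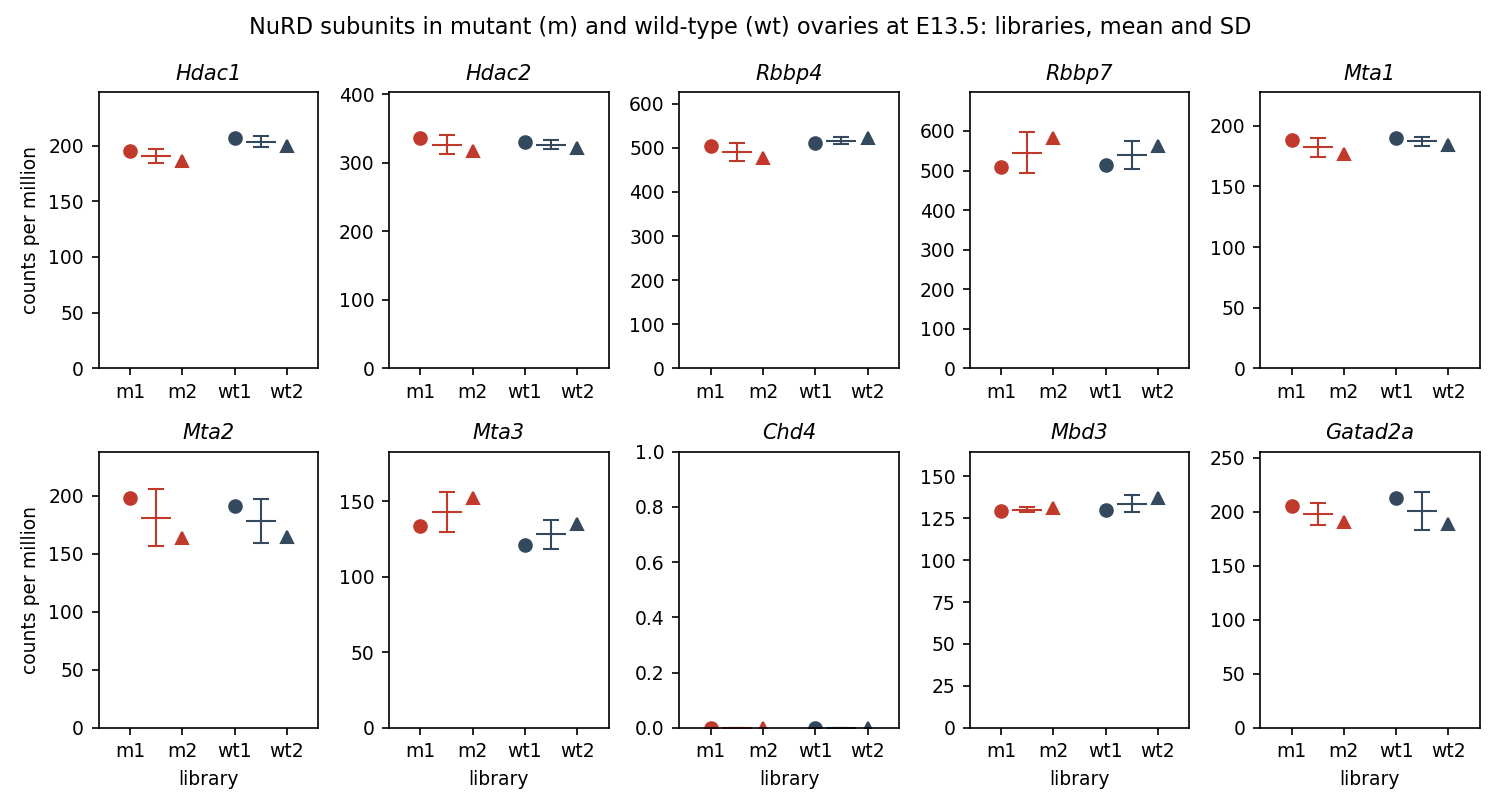
Levels of the 10 NuRD members in each library, in CPM (scaled counts) on axes that start at 0 and differ between genes, for mutant (m1, m2, red) and wild-type (wt1, wt2, dark) ovaries; circles are replicate 1, triangles replicate 2, and bars with caps give the mean and SD of each genotype. The groups separated only for Hdac1 and Rbbp4, where both mutant libraries lay below both wild-type libraries, and Chd4 was at 0 throughout.

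Levels are in CPM, counts scaled to library sizes that edgeR adjusts with its TMM factors. Hdac1, the first of the deacetylases, is on chromosome 4 (129193348 to 129219957, minus strand). Its level was 195 and 186 CPM in the mutant libraries and 207 and 199.9 CPM in the wild-type libraries. Both mutant values lay below both wild-type values, by 190.4 ± 6.31 against 203 ± 4.87 CPM (SD, n = 2 each), but the log2 fold change of -0.09 (SE 0.09, 95% interval -0.30 to 0.11) did not pass the test. Hdac2, on chromosome 10 from 36694350 to 36721695, had 336 and 317 CPM in mutant and 331 and 322 CPM in wild-type ovaries. These groups overlapped almost completely, and the log2 fold change was 0.00 (0.0021, SE 0.09, interval -0.20 to 0.21). Every adjusted p of the 9 members was 0.9996 in this edgeR test, and is not repeated for each gene. Expression from bulk ovary does not tell fewer cells of a type from less RNA per cell.

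The coding sequences of both deacetylases are 75.7% identical over 1446 aligned bases, and their longest shared run is 17 bases. The 60-base stretch around that run is given, as coding bases 220 to 279 of Hdac1 and 223 to 282 of Hdac2 in GENCODE M1, with the 10 differing bases in capitals.
Hdac1: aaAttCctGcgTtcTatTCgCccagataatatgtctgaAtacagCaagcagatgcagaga
Hdac2: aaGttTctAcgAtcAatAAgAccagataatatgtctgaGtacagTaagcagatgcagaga
Hdac1 had near-identical copies elsewhere in the genome, and none were found for Hdac2 in the transcript searched. Exact matches of at least 50 bases at 3 other places, one of them the annotated gene Gm10093 on chromosome 17, covered 94.0% of the 2038-base Hdac1 transcript, whereas Hdac2 had 0 such places. The Hdac1 counts are therefore uncertain. For Hdac2, the search covered a transcript of 3250 bases, out of 4482 bases of annotated exon, so copies of the rest were not tested.

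Rbbp4 and Rbbp7 encode the histone-binding WD40 proteins, which NuRD shares with the Sin3 and PRC2 complexes and with the chromatin assembly factor CAF-1. Rbbp4, on chromosome 4 (128984344 to 129012614, minus strand), had 505 and 476 CPM in mutant against 511 and 522 CPM in wild-type ovaries. The mutant libraries were again the lower ones, at 491 ± 19.95 against 516 ± 8.42 CPM, with a log2 fold change of -0.07 (SE 0.09, interval -0.28 to 0.13). Rbbp7, on the X chromosome from 159198334 to 159217024, had 508 and 582 CPM in mutant and 513 and 563 CPM in wild-type ovaries. It was higher in replicate 2 of either genotype, and its log2 fold change was 0.02 (SE 0.10, interval -0.23 to 0.27). Hdac1 and Rbbp4 were the 2 of 9 members whose groups did not overlap, where 30.9% of all genes tested did not overlap.

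The coding sequences of Rbbp4 and Rbbp7 are 78.2% identical, the highest share among the pairs compared, with a longest shared run of 20 bases. The 60 bases around this run differ at 13 positions, in capitals, and stand at coding bases 344 to 403 of Rbbp4 and 341 to 400 of Rbbp7.
Rbbp4: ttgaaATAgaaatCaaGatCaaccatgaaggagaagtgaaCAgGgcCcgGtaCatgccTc
Rbbp7: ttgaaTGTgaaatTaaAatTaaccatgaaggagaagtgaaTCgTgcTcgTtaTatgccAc
Exact copies elsewhere covered 39.7% of the Rbbp7 transcript, including the pseudogene Gm6382 on the X chromosome, and 5.45% of the Rbbp4 transcript. Exons of other genes on the opposite strand covered 18.05% of the Rbbp4 exons (Gm17525 and Sync) and 5.98% of the Rbbp7 exons (Txlng). Whether the counting kept the strands apart is not given in the sources used here, so both counts are uncertain to that extent.

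The MTA scaffold proteins, each of which can hold the deacetylases in NuRD, showed no genotype difference that passed. Mta1, on chromosome 12 from 114336489 to 114375417, had 188 and 177 CPM in mutant and 189.9 and 184 CPM in wild-type ovaries, and the groups overlapped. Its log2 fold change was -0.04 (SE 0.09, interval -0.25 to 0.17). Mta2, on chromosome 19 from 9016365 to 9026793, had 198 and 164 CPM in mutant and 192 and 165 CPM in wild-type ovaries. Here replicate 1 was the high library of each genotype, and the genotypes differed by a log2 fold change of only 0.02 (SE 0.13, interval -0.28 to 0.32). Mta3, on chromosome 17 from 84105503 to 84223055, had the largest estimate of the members. It stood at 134 and 152 CPM in mutant and 121 and 134.7 CPM in wild-type ovaries, so that the lower mutant library fell below the higher wild-type one. The log2 fold change of Mta3 was 0.16 (SE 0.11, interval -0.10 to 0.42, unadjusted p = 0.180 by edgeR's test), and 62.7% of all genes tested had a smaller absolute fold change.

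The coding sequences of Mta1 and Mta2 are 67.3% identical and those of Mta3 and Mta2 68.7% identical. Mta1 and Mta3 share 71.8%, and their 60 bases around the longest common run, at coding bases 29 to 88 of both genes, differ at 10 positions, shown in capitals. This stretch lies near the start of the coding sequence, and a run shared by Mta1 and Mta2 overlaps it, at coding bases 40 to 59 of both.
Mta1: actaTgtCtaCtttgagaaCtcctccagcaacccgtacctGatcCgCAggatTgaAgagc
Mta3: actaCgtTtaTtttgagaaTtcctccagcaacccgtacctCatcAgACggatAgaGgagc
None of the MTA transcripts searched had an exact copy of at least 50 bases elsewhere in the genome. Their exons overlapped no other gene in GENCODE M1. The annotation used for counting is not given in the sources used here, so overlaps in it were not checked.

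Mbd3 and Gatad2a link the deacetylase module to the remodeller. Mbd3, on chromosome 10 (79855284 to 79862295, minus strand), had 129 and 131 CPM in mutant and 130.0 and 137 CPM in wild-type ovaries. Its libraries were the closest together within the mutants, at 130.1 ± 1.59 CPM, and the log2 fold change was -0.04 (SE 0.09, interval -0.25 to 0.17). Gatad2a, on chromosome 8 (72430968 to 72520278, minus strand), had 205 and 191 CPM in mutant and 213 and 189 CPM in wild-type ovaries. Both mutant values fell within the wild-type range, with a log2 fold change of -0.02 (SE 0.10, interval -0.26 to 0.22).

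Chd4, the usual remodelling ATPase of the complex (chromosome 6, 125045999 to 125080609, plus strand), was listed at 0 counts in all 4 libraries. With a floor of 3 counts, which covers counting error only, the detection limit was between 0.170 and 0.272 CPM in these libraries, so the table allows no more than that for reads assigned to this symbol. No fold change can be given. A second row of the table, mKIAA4075, which RefSeq lists as a synonym of Chd4, also held 0 counts in all. Of 159 symbols with such a second row, 14, or 8.81%, were listed at 0 in every library, Chd4 among them. Of all rows, 35.9% were at 0, but rows of every kind enter that share, so these shares are not like for like. How reads that fall on more than 1 gene model were counted is not given in the sources used here, so the limit above holds for the counts as listed and not for the RNA. Of the neighbouring genes, Nop2 had between 696 and 1112 counts per library and Lpar5 between 5 and 9. The Chd4 exons overlapped no other gene in GENCODE M1, and exact copies elsewhere covered only 2.75% of its 6697-base transcript. How the annotation used for counting defined Chd4 is not given in the sources used here, and whether its RNA was absent was not tested.

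Chd3, the closest relative of Chd4, was read in every library and can take its place in the complex. It had 309 and 292 CPM in mutant against 322 and 358 CPM in wild-type ovaries, and its groups did not overlap. Its log2 fold change of -0.18 (SE 0.09, interval -0.40 to 0.05, unadjusted p = 0.103 by edgeR's test) was the largest decrease among the other subunits and did not pass. The coding sequences of Chd4 and Chd3 are 71.6% identical, with a longest shared run of 35 bases. The 60 bases around this run, the longest of all pairs, stand at coding bases 3424 to 3483 of Chd4 and 3610 to 3669 of Chd3 and differ at 7 positions, in capitals.
Chd4: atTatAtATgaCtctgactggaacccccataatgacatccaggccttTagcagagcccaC
Chd3: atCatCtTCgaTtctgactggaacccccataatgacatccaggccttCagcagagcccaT
Chd5, another ATPase of this family and mostly a neural gene, had 12.8 and 17.3 CPM in mutant and 14.1 and 13.7 CPM in wild-type ovaries, with a log2 fold change of 0.12 (SE 0.19).

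Among the other alternative subunits, Mbd2 had 49.3 and 39.6 CPM in mutant and 50.9 and 46.1 CPM in wild-type ovaries, with overlapping groups and a log2 fold change of -0.13 (SE 0.14). Gatad2b, the paralog of Gatad2a, had 50.6 and 47.3 CPM in mutant and 47.7 and 45.8 CPM in wild-type ovaries, with a log2 fold change of 0.07 (SE 0.11). Cdk2ap1, a small accessory subunit, had 121 and 111 CPM in mutant and 124 and 124 CPM in wild-type ovaries, with a log2 fold change of -0.10 (SE 0.09). Its mutant libraries lay below the wild-type ones, but exact copies elsewhere covered 97.0% of its transcript. None of the 5 genes passed the test, and 2 of 5 did not overlap between genotypes, beside 30.9% of all genes tested.

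**Figure D2:**
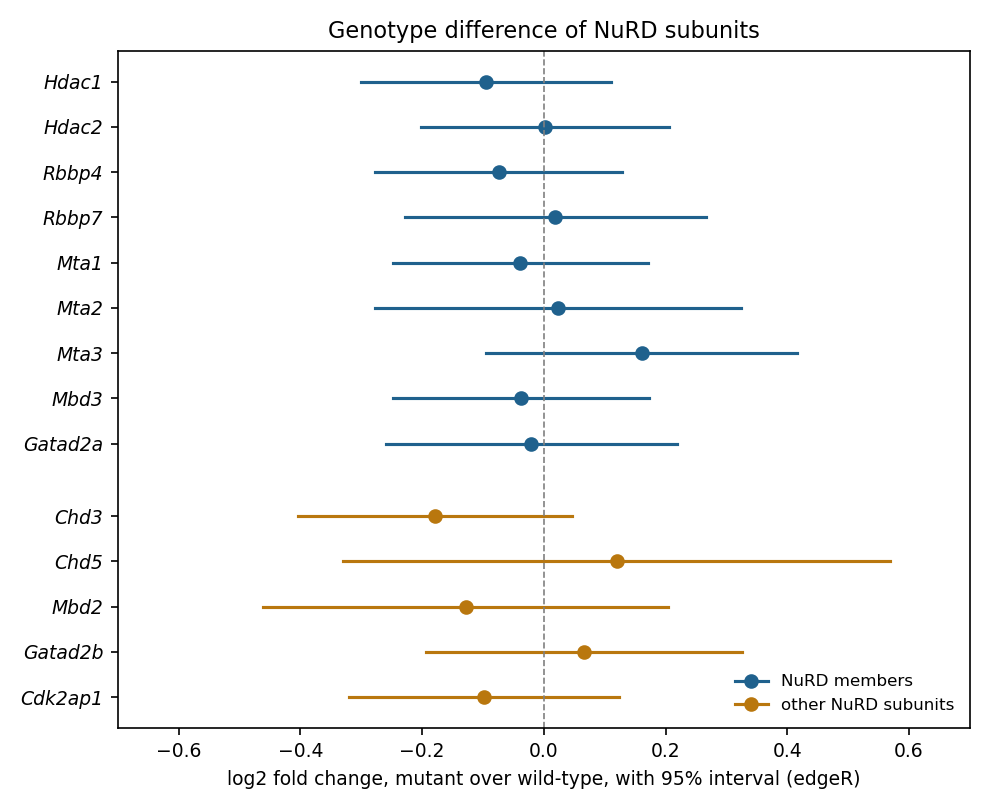
Log2 fold changes of mutant over wild-type ovaries (horizontal axis, points) with 95% intervals (lines) from edgeR for the 9 members tested (blue) and 5 other NuRD subunits (orange). Every interval crosses 0, and Mta3 at 0.16 and Chd3 at -0.18 are the farthest from it among members and other subunits.

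The members lay close around no change. Their median log2 fold change was -0.02, beside -0.00088 over all genes tested, and 4 were above and 5 below 0. The median absolute log2 fold change was 0.04 for the members and 0.11 for all genes, but the members were also measured more precisely, with a median SE of 0.09 against 0.16. All 9 intervals included 0. Taken as folds, the interval bounds ran from 0.812 to 1.33, so a change of any member by more than about that range lay outside its interval, while smaller changes could not be resolved with 2 libraries per genotype.

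Many members differed more between replicates than between genotypes. The mean log2 difference of replicate 2 over replicate 1 was larger in size than the log2 fold change of the genotype in 7 of 9 members, and in 58.5% of all genes. The median size of this replicate difference was 0.07 for the members and 0.15 for all genes on the log2 scale. In 8 of 9 members, replicate 2 differed from replicate 1 in the same direction in both genotypes, where 62.2% of all genes did so. Mta2 was lower in replicate 2, by a log2 difference of -0.28 in mutant and -0.22 in wild-type ovaries. Rbbp7 (0.20 and 0.13) and Mta3 (0.19 and 0.15) were higher in it. These shifts went with the replicate number in both genotypes. In the names of the count columns, libraries with the same replicate number carry neighbouring library numbers, but what either number stands for is not given in the sources used here.

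To compare levels between genes, counts were divided by the length of all exons of a gene in GENCODE M1, giving RPKM (CPM per kilobase), averaged over the 4 libraries. Rbbp7 was highest, at 186 ± 12.6 RPKM (SD, n = 4), above 98.7% of the 13713 tested genes with a length. Next came Hdac2 at 72.9 ± 1.92 and Mbd3 at 66.4 ± 1.86 RPKM, which did not overlap with each other or with Mta1. Mta1 (59.5 ± 1.88), Rbbp4 (57.6 ± 2.23) and Hdac1 (57.2 ± 2.54 RPKM) followed, and neighbours among these did not differ beyond their ranges over libraries. Mta2 at 43.9 ± 4.37, Gatad2a at 36.3 ± 2.13 and Mta3 at 19.97 ± 1.89 RPKM were the lowest, in ranges that did not overlap. Even Mta3 lay above 75.7% of tested genes, whose median was 7.67 RPKM.

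This order depends on the length used. Rbbp4 has 8744 bases of annotated exon but a longest transcript of 4663 bases, and with the longest transcript as length it moved from rank 5 to rank 2, so that 5 members changed rank. Rbbp7 in first place and Mta2, Gatad2a and Mta3 in the last places held under both lengths.

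**Figure D3:**
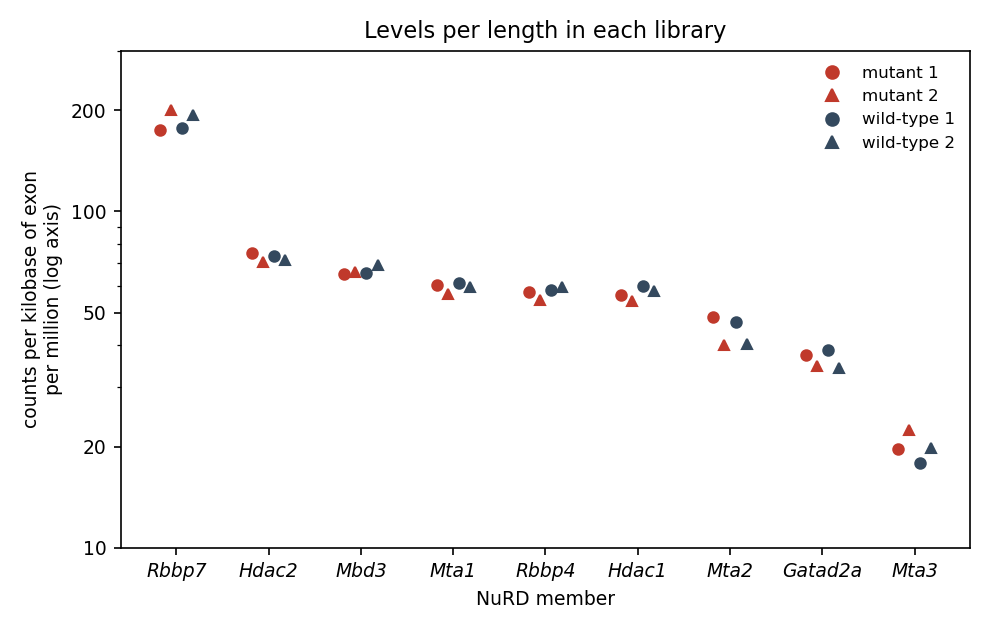
Level per length of the 9 members tested, in RPKM on a log axis, for each library (red mutant, dark wild-type, circles replicate 1, triangles replicate 2). Rbbp7 stands at 175 to 200.1 and Mta3 at 17.9 to 22.5, and the genotypes overlap within each gene except Hdac1 and Rbbp4.

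Summed by role, the deacetylases had 132 and 125 RPKM in mutant and 134 and 129.8 RPKM in wild-type ovaries. The WD40 proteins reached 233 and 255 RPKM in mutant and 235 and 253 RPKM in wild-type ovaries, and the MTA scaffolds 129 and 119 RPKM against 126 and 119.6 RPKM. The sums of mutant and wild-type libraries with the same number were close to each other.

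NuRD exists in versions that hold one or the other paralog of a subunit, and the ratio of paralogs within a library does not depend on the scaling between libraries. The size of a ratio does depend on the exon lengths used, but its log2 difference between genotypes does not. Of 7 pairs listed, 6 gave ratios, since Chd4 was at 0. The ratio of Hdac1 to Hdac2 per kilobase was 0.754 and 0.763 in mutant against 0.813 and 0.809 in wild-type libraries. Both mutant ratios were lower, with a mean difference of -0.10 on the log2 scale, and the exact permutation test gave the smallest p it can, 0.3333 (two-sided, adjusted p = 0.667 over the pairs). The uncertain Hdac1 counts enter this ratio. Gatad2a to Gatad2b was the other ratio without overlap. It stood at 1.40 and 1.40 in mutant and 1.55 and 1.43 in wild-type libraries (mean log2 difference -0.08, same exact p). With wild-type replicate 1 left out, this difference was -0.026. The exact p of 0.3333 is also the share of labellings of the 4 libraries that separate the groups fully. Beside that share, 2 of 6 ratios without overlap says nothing particular about the pairs.

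The remaining ratios overlapped between genotypes. Rbbp4 to Rbbp7 was 0.330 and 0.272 in mutant and 0.331 and 0.309 in wild-type libraries. Mbd3 exceeded Mbd2 in every library, with ratios of 4.24 and 5.36 in mutant and 4.13 and 4.82 in wild-type libraries. In the MTA group, Mta1 to Mta2 was 1.249 and 1.42 against 1.31 and 1.48. Mta3 to Mta2 was 0.406 and 0.561 against 0.382 and 0.493, the widest spread between replicates of the same genotype, with replicate 2 higher in both. The exact p was 0.667 for each of these ratios.

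**Figure D4:**
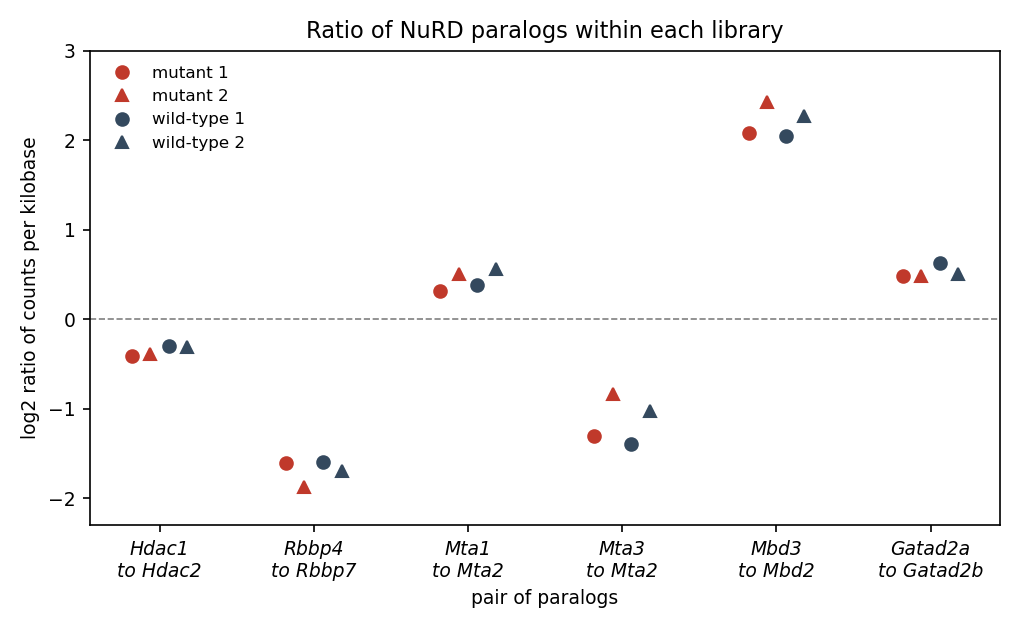
Log2 ratio of the counts per kilobase of 6 paralog pairs within each library (red mutant, dark wild-type, circles replicate 1, triangles replicate 2), with the dashed line at equal levels. Both mutant points lie below both wild-type points only for Hdac1 to Hdac2 and Gatad2a to Gatad2b. The group means of these pairs differ by 0.10 and 0.08 on the log2 scale. For Gatad2a to Gatad2b, the nearest points are 0.489 in mutant and 0.512 in wild-type libraries.

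The genes of other complexes that share subunits with NuRD, or that hold another deacetylase of its class, were read from the same fit. None of 36 tested genes passed, and the counts of genes whose genotypes did not overlap stand beside 30.9% of all genes tested. Of the Sin3 complex, 13 of 14 genes were tested, with a median of -0.0050 and 4 not overlapping. Brms1l, a Sin3 subunit, had the smallest p of those above 0 (log2 fold change 0.17, SE 0.11), and Sinhcaf, listed as Fam60a, of those below (-0.13, SE 0.10), while Brms1 was listed at 0. CoREST, in which the demethylase KDM1A joins HDAC1 and HDAC2, had a median of 0.06 over 7 genes, 3 of them not overlapping, with Phf21a (0.17, SE 0.10) and Rcor2 (-0.05, SE 0.12) named by the same rule. NCoR, which holds HDAC3 instead, had a median of 0.0067 over 6 genes and 1 not overlapping, with Tbl1x at 0.08 (SE 0.10) and Hdac3 at -0.03 (SE 0.09). PRC2 and CAF-1, which share the WD40 proteins, had a median of -0.07 over 10 of 11 genes, and 4 did not overlap. There, Ezh1 stood at 0.21 (SE 0.10, unadjusted p = 0.0660 by edgeR's test) and Aebp2 at -0.12 (SE 0.11).

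Among 10 zinc finger factors known to bind NuRD, 1 passed, the overexpressed Sall1. Without overlap were also Sall3, Zfpm1, Zfpm2 and Ikzf1, which with Sall1 makes 5 of 10, beside 30.9% of all genes tested. Zfpm1, the FOG protein of blood cells, had 21.3 and 22.4 CPM in mutant and 29.2 and 24.1 CPM in wild-type ovaries, a log2 fold change of -0.28 (SE 0.14) that did not pass. Sall3 had a larger estimate, 0.40 (SE 0.17), which did not pass either. It stood at 16.0 and 16.3 CPM in mutant and 10.9 and 13.4 CPM in wild-type ovaries. The median log2 fold change of these factors was 0.09. Sall1 had 113 and 96.0 CPM in mutant and 16.2 and 12.6 CPM in wild-type ovaries. Sall4, a germ cell factor of the same family, differed between replicates more than between genotypes, at 168 and 108 CPM in mutant and 154 and 104 CPM in wild-type ovaries.

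**Figure D5:**
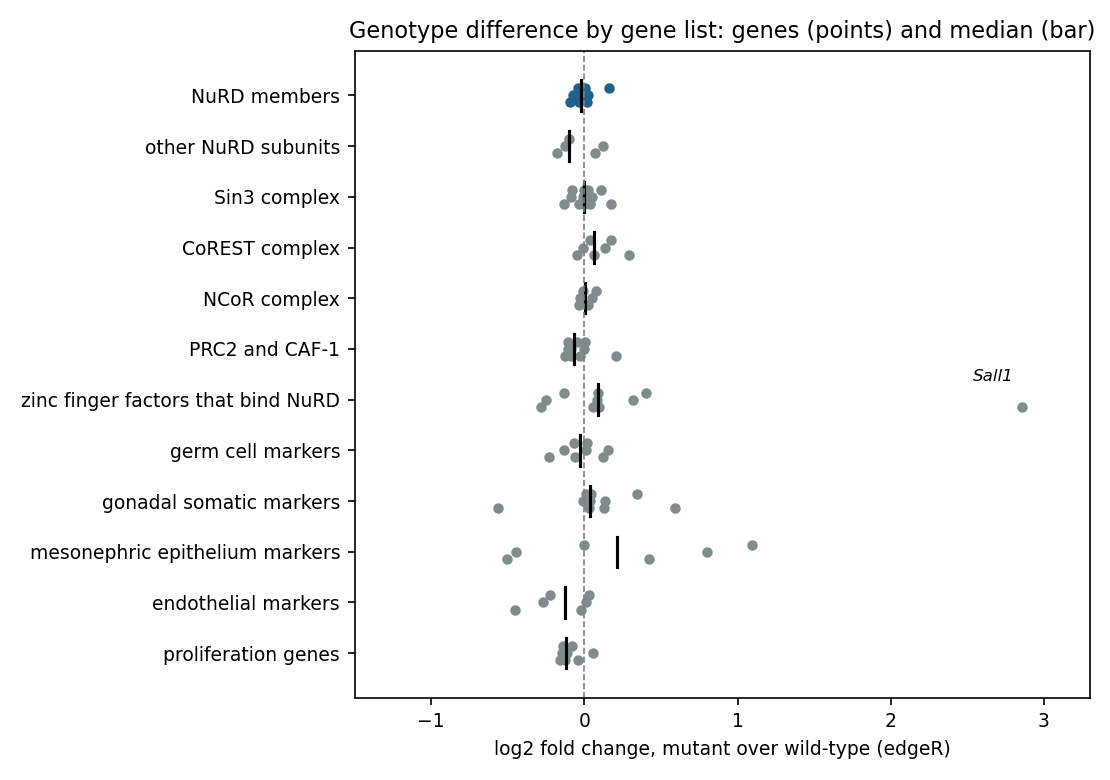
Log2 fold changes of mutant over wild-type ovaries (horizontal axis) for each tested gene of the NuRD members (blue) and of the further lists except red cell markers (grey), with the median of each list as a black bar. The members lie between -0.09 and 0.16, and Sall1 at 2.85 is the point on the far right.

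Markers of the cell types in the tissue were read beside these values. Germ cell markers, 8 of 8 tested, summed to 1628 and 1881 CPM in mutant and 1728 and 1816 CPM in wild-type ovaries, and gonadal somatic markers, 10 of 10 tested, to 1655 and 1454 against 1544 and 1503 CPM, in accord with the labelled tissue. Wt1, whose elements drive the transgene, had a log2 fold change of 0.03 (SE 0.10). The sums of red cell markers differed most between libraries, at 3179 and 870.0 CPM in mutant and 3493 and 1681 CPM in wild-type ovaries, lower in replicate 2 of either genotype. Endothelial markers summed to 436 and 413 against 454 and 477 CPM, mesonephric epithelium markers to 37.2 and 51.7 against 37.5 and 41.6 CPM, and proliferation genes to 2655 and 2428 against 2660 and 2700 CPM. The summed NuRD members stayed between 2377 and 2417 CPM in all 4 libraries. No gene of these marker lists passed the test. Outside the red cell list, unadjusted p-values of edgeR's test lay under 0.05 for 3 of 10 gonadal somatic markers. The same held for 1 of 6 tested endothelial and 1 of 6 tested mesonephric markers, and for 0 germ cell markers and 0 proliferation genes. Over all genes tested, 878 of 15442 did so. By the rule for naming genes, those with the smallest p in each direction were Ddx4 (0.16) and Pou5f1 (-0.13) in germ cells, Foxl2 (0.59) and Lhx9 (-0.56) in somatic cells, Pax8 (0.80) and Ret (-0.51) in mesonephric epithelium, Cdh5 (0.03) and Kdr (-0.46) in endothelium, and Mki67 (0.06) and Mcm5 (-0.14) in proliferation, as log2 fold changes. The part of cell composition in the members' values was not tested.

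The promoter windows matched to members share features that the choice of genes did not use. RefSeq promoter windows on GRCm38.p6, from 250 bases before to 50 bases after a start site, were matched for 8 of 10 members. This gave 10 windows, and Hdac1 and Mta3 had none. The GC box GGGCGG, on either strand, was present in 10 of 10 windows, counting both overlapping windows of Chd4, against 35.7% of 32851 mouse promoters. It was also present in every window of the other NuRD subunits with an entry, Chd5, Gatad2b and Cdk2ap1. The member windows were rich in GC, from 57.0% (Chd4) to 81.0% (Mta1), against a median of 52.7% in all promoters, so the background is unlike them. The CCAAT box was found in 6 of 10 windows, from 5 genes, against 37.4% of promoters, where 2 of the 6 are overlapping windows of Chd4. TATAAA, searched on either strand like every motif here, was found only in Mbd3 (13.6% of promoters). There it lies on the opposite strand and reads TTTATA in the window given below. The ETS motif CCGGAAGT was found only in Mta2 (3.89%), and the NRF1 motif by its letters in 0 (0.971%). The windows held a median of 29.5 CpG dinucleotides, against 7 in all promoters, and the GC box holds a CpG itself. A match of letters is a description and not a site of binding. The windows of Rbbp7 and Mbd3 are given in the direction of transcription with CpG in capitals. That of Rbbp7, the member with the highest level, is at chrX:162760122-162760421 on the plus strand. That of Mbd3, the only one of the 8 members with a window that held TATAAA on either strand, is at chr10:80399482-80399781 on the minus strand.
Rbbp7 promoter: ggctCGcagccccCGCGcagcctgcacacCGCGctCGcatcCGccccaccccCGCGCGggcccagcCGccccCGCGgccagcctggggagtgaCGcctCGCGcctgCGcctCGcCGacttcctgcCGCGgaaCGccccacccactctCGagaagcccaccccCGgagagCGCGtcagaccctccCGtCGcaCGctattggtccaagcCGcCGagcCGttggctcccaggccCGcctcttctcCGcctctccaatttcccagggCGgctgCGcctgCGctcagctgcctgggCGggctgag
Mbd3 promoter: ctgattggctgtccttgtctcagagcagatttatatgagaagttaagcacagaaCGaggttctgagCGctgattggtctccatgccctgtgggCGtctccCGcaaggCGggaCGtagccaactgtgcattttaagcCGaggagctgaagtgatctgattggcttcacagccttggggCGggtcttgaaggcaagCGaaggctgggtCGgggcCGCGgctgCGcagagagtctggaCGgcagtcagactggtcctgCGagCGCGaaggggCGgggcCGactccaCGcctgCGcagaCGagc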

How the data were processed

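Total RNA of E13.5 ovaries was sequenced on an Illumina HiSeq. The authors mapped reads with STAR 2.6.1d to mm9 (build from the submitters' processing notes) and counted them per gene with summarizeOverlaps. The deposited counts are not normalized or pooled, and the annotation, the strand setting and the rule for reads on overlapping genes are not given in the sources used here.

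Counts were analysed in R 4.3.3 with edgeR 4.0.16 (TMM, filterByExpr, quasi-likelihood F-test, Benjamini-Hochberg adjustment over 15442 genes, threshold 0.05), with genotype as the only factor and all 4 libraries in 1 fit. DESeq2, which the authors used in a version that they do not give, was run here as version 1.42.0 and was an alternative. The other alternatives were RLE normalization, no filter, the replicate number as a block and leaving out each library. Library totals were 11036313 to 17869840. The floor of 3 counts covers counting error only.

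Gene positions and lengths came from GENCODE M1 on NCBIM37, matched by symbol. Copies elsewhere were searched with BLAST 2.17.0 (exact matches of at least 50 bases) for the longest protein-coding transcript of each gene. Coding sequences were aligned with Biopython 1.88. Promoters were from RefSeq.

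The members and lists were chosen with earlier results of these data known. Named were all members, 5 other NuRD subunits, Sall1, Wt1, and in each list the genes that passed and the gene with the smallest p in each direction. Sall3, Sall4, Zfpm2 and Ikzf1 were named after their values were seen. 1 gene that the rule named is not reported here. Protein sequences were not analysed here.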

Additional observations from a re-analysis of the deposited data

How the results depend on the processing

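No NuRD member, other NuRD subunit or partner complex gene passed under any of the 8 alternatives, and Sall1 passed under each. The number of genes called overall was 9 and moved to 105 with DESeq2, 28 without the filter and 385 with the replicate block. Leaving out 1 library gave between 4 (without wild-type replicate 2) and 130 (without mutant replicate 1), with 38 without mutant replicate 2. A lone library is then assumed to vary like the other group. Same-numbered libraries deviated together with a correlation of 0.481 across genes, but only 2 pairs exist and the labels name no shared litter. Under the replicate block, the smallest adjusted p of a member was 0.529, for Mta3 (log2 fold change 0.16), in edgeR.

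Of 72 member fold changes under alternatives, 60 kept their sign and 12 changed it. Those 12 belong to genes with main log2 fold changes between -0.04 (Mta1) and 0.02 (Mta2). The largest reversed value was -0.12, for Mta2 without mutant replicate 1. Hdac2 became -0.0027 with DESeq2 and -0.0063 without the filter. With 1 library left out, log2 fold changes ran from -0.042 to 0.042 for Hdac2, -0.084 to 0.11 for Rbbp7, -0.086 to 0.0040 for Mta1, -0.12 to 0.15 for Mta2, -0.076 to 0.013 for Mbd3 and -0.096 to 0.071 for Gatad2a, and the median of all members from -0.074 to 0.0040. The count of paralog ratios without overlap, 2, became 3 to 5, as fewer libraries overlap more rarely, with 5 without mutant replicate 1 or without wild-type replicate 2. Using the longest transcript as length changed the rank of 5 members. Hdac1 (-0.13 to -0.063), Rbbp4 (-0.12 to -0.035) and Mta3 (0.060 to 0.25) kept their direction with each library left out and under the other alternatives, but the size of each moved by over 1.5 times in at least 1 of them. With 2 libraries per genotype, changes within the intervals given could not be resolved.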
